A study of Homo sapiens with 6 samples.

Results

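The HOX cluster genes were examined in Myc chromatin immunoprecipitation sequencing (ChIP-seq) peak lists from parental MDA-MB-231 cells and a TXNIP-knockout derivative, TKO. Members were the 39 protein-coding genes named HOXA, HOXB, HOXC or HOXD plus a number, out of 19785 protein-coding genes in the annotation. They comprised 11 HOXA genes on chromosome 7, 10 HOXB genes on chromosome 17, 9 HOXC genes on chromosome 12 and 9 HOXD genes on chromosome 2. A gene was called bound in a library when the summit of a Myc peak, its highest point, lay no more than 1 kb from a start of transcription (TSS) of a basic transcript, GENCODE's set of representative transcripts. All peaks inside the 4 clusters were also collected, from the first to the last gene plus 5 kb on each side, over 562.711 kb in all. The selection rule used gene names and positions and no measured value, but the list was chosen with earlier results of these data known.

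MDA-MB-231 is an established human triple-negative breast cancer cell line. The study asked whether loss of TXNIP, the thioredoxin interacting protein, changes Myc occupancy across the genome. The parental cells carried their own TXNIP gene. The TKO cells were derived from them with a CRISPR/Cas9 TXNIP knockout plasmid and came from clones grown from single cells, so a difference between both lines cannot be told apart from a difference between clones. Cells of both genotypes grew in the same serum-containing medium with no drug, and the same Myc antibody was used. Each genotype had 2 Myc libraries, called parental 1, parental 2, TKO 1 and TKO 2 below. The study describes the libraries of each line as biological replicates, without saying how the cultures were kept apart.

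HOX genes encode homeodomain transcription factors that give cells their position along the body axis. Their order along the chromosome follows the order in which they are used from head to tail. Polycomb group proteins keep HOX clusters silent in cells that do not use them, and Trithorax and MLL group proteins keep them active. Myc binds DNA as a dimer with Max, and its canonical recognition sequence is the E-box CACGTG.

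The sequences under HOX peaks of TKO cells are shown first, for 4 of the sites called in TKO 1 and TKO 2 and for a site of TKO 1 at HOXD4. Each is the 101 bp centred on the summit, read 5′ to 3′ on the plus strand of hg19 (GRCh37), with any CACGTG in capitals. None of the 101 bp windows overlaps an annotated untranslated region, and the HOXD4 distal and proximal windows hold 49 and 17 bp of coding sequence.
HOXB9 upstream, chr17:46704019-46704119: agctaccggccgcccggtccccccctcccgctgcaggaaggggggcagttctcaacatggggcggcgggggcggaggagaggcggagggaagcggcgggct
HOXC9 intron, chr12:54389473-54389573: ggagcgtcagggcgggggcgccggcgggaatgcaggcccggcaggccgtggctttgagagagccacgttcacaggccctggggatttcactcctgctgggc
HOXD13 to HOXD12 interval, chr2:176962333-176962433: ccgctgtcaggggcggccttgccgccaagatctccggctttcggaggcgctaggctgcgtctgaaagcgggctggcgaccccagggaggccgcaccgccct
HOXD4, distal site across an intron and coding exon boundary, chr2:177017284-177017384: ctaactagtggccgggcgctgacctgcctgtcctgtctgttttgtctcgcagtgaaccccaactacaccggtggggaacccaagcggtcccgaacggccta
HOXD4, proximal site across a coding exon and intron boundary, TKO 1 alone, chr2:177016778-177016878: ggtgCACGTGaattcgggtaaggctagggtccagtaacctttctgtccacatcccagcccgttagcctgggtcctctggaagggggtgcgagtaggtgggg
The HOXD4 proximal window holds the E-box of the set, centred 43 bp to the left of the summit. The other windows hold no CACGTG and are rich in G and C, with 10 CG dinucleotides in the HOXB9 window and 11 in that between HOXD13 and HOXD12.

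HOX promoters also hold many E-boxes that had no peak. For each cluster, the E-box nearest to a TSS of an unbound gene is shown with 10 bases on each side, on the plus strand of hg19, with CACGTG in capitals.
HOXA7, chr7:27196284-27196309: ctcgccgcagCACGTGaccgcccaca
HOXB7, chr17:46688393-46688418: ctctccggacCACGTGaccccgccca
HOXC11, chr12:54366897-54366922: tactttggatCACGTGctcagagaga
HOXD9, chr2:176987392-176987417: taaatatgatCACGTGggccgcgcga
These 4 E-boxes are centred 2, 26, 1 and 43 bp upstream of the TSS of HOXA7, HOXB7, HOXC11 and HOXD9, and no peak of any of the 4 libraries covered them.

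The peak lists held 3720 and 5719 peaks in the parental libraries and 27213 and 25887 in the TKO libraries. The depth recovered from the lists was 26.4 and 22.2 M reads in the parental libraries and 19.9 and 13.04 M in the TKO libraries, so the longer lists came from the shallower libraries. The weakest listed peaks had 13, 10, 9 and 7 reads at the summit in parental 1, parental 2, TKO 1 and TKO 2. Weaker Myc signal at a HOX gene was not detectable in these lists.

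Few HOX promoters had a Myc peak in TKO cells, and none had one in parental cells. The number of bound HOX genes was 0 of 39 in parental 1, 0 of 39 in parental 2, 3 of 39 in TKO 1 and 2 of 39 in TKO 2. Among all protein-coding genes, 12.2% and 12.9% were bound in the parental libraries and 49.1% and 49.7% in the TKO libraries. The HOX shares were 7.69% (95% Clopper-Pearson confidence interval 1.62% to 20.9%) in TKO 1 and 5.13% (0.627% to 17.3%) in TKO 2, below the shares of all genes by a mean of 43.0 percentage points. A count of 0 among 39 genes allows a share of up to 7.69%, taken as 3 counts, and the exact interval reaches 9.03%, both under the parental shares of all genes. At those shares of all genes, 4.77 and 5.03 of the 39 HOX genes would have been bound in the parental libraries and 19.2 and 19.4 in the TKO libraries. These intervals and limits cover counting error only, and neighbouring genes of a cluster are not independent.

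The mean number of bound HOX genes was 2.5 ± 0.707 (SD, n = 2) in TKO cells and 0 ± 0 (SD, n = 2) in parental cells. Both TKO libraries lay above both parental libraries (exact two-sided permutation p = 0.333, n = 2 per group), which is the smallest p that 2 libraries against 2 allow. HOXB9 and HOXC9 were bound in TKO 1 and TKO 2 but in no parental library, as were 29.8% of all protein-coding genes. HOXD4 was bound in TKO 1 alone, and the other 36 HOX genes were bound in no library, against 46.3% of all genes. HOXB9 and HOXC9, 2 of 39, were the HOX genes bound in both TKO libraries, against 45.2% of all genes. No HOX gene was bound in both parental libraries, against 9.36% of all genes, and none had lost its peak in TKO, against 0.00505%. With lists cut to the 3720 strongest peaks each by −log10 p, no HOX gene was bound in any library, while 13.3% and 13.6% of all genes were bound in TKO 1 and TKO 2.

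HOXB9, a posterior HOX gene of paralog group 9, is transcribed from the minus strand at chr17:46698518-46703720. Its upstream peak had a fold enrichment over local background of 5.16 in TKO 1 (chr17:46703920-46704108, 14 reads at the summit, 341 bp upstream of the TSS). In TKO 2 the fold was 8.83 (chr17:46703917-46704165, 20 reads, 349 bp upstream). The summits of both libraries lay within 8 bp of each other. By fold, this peak stood at the 45.2nd percentile of the TKO 1 list and the 85.5th of the TKO 2 list. TKO 1 had a further peak in the HOXB9 coding exon, with a fold of 4.18 and 13 reads, 146 bp downstream of the TSS. The nearest parental summits were 266285 bp (parental 1) and 120314 bp (parental 2) away from the HOXB9 TSS.

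HOXC9, the paralog of HOXB9 in the HOXC cluster, lies on the plus strand at chr12:54388679-54397121. Its peak lay in an intron, at a site that the antisense RNA HOXC-AS2 also spans. The fold was 4.39 in TKO 1 (chr12:54389388-54389569, 14 reads, 139 bp downstream of the nearest TSS). It was 4.82 in TKO 2 (chr12:54389287-54389673, 14 reads, 230 bp downstream). The peak stood at the 26.8th and 31.0th percentile of the lists, so it was among the weaker peaks of both. HOXC9 has a further TSS with an E-box centred 107 bp upstream of it, and no peak covered that E-box.

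HOXD4, a central HOX gene on the plus strand at chr2:177016278-177017954, fell on both sides of the 1 kb limit. It is described although it was bound in only 1 TKO library and so falls outside the naming rule. TKO 1 had a proximal intron peak with a fold of 7.65 and 19 reads (chr2:177016720-177016956, 550 bp downstream of the TSS), the one whose sequence holds the E-box. TKO 2 had no peak there. A distal intron peak was in both lists, with a fold of 4.59 and 10 reads in TKO 1 (chr2:177017131-177017465, 871 bp downstream). In TKO 2 its fold was 8.43 with 16 reads (chr2:177017165-177017486), and its summit at 1056 bp lay just outside the window. Counted by overlap of the peak with the window instead of by the summit, HOXD4 was bound in both TKO libraries. The microRNA gene MIR10B, in the same cluster, had its nearest TKO summits 1797 and 2303 bp from its start.

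Inside the clusters, parental 1 and parental 2 had 0 peaks, TKO 1 had 8 and TKO 2 had 7. The mean was 7.5 ± 0.707 (SD, n = 2) in TKO cells and 0 ± 0 in parental cells (exact two-sided permutation p = 0.333, n = 2 per group). The TKO peaks covered 2633 and 2937 bp of the clusters. At each library's density over chromosomes 1 to 22 and X, 0.689 and 1.06 peaks would have fallen into the clusters in the parental libraries and 5.04 and 4.79 in the TKO libraries. Per length, the clusters held no fewer TKO peaks than the genome, with 1.42 and 1.24 peaks per 100 kb against 0.896 and 0.852. These densities were not matched for the number of TSSs, and the clusters hold those of 39 HOX genes and 44 further genes. Within 500 kb of a cluster on either side, the density was 1.24 and 0.934 per 100 kb in TKO 1 and TKO 2. Within 1 kb of a HOX TSS lay 5 of the 8 peaks of TKO 1 and 2 of the 7 of TKO 2, so most TKO 2 peaks of the clusters counted for no gene.

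**Figure D1:**
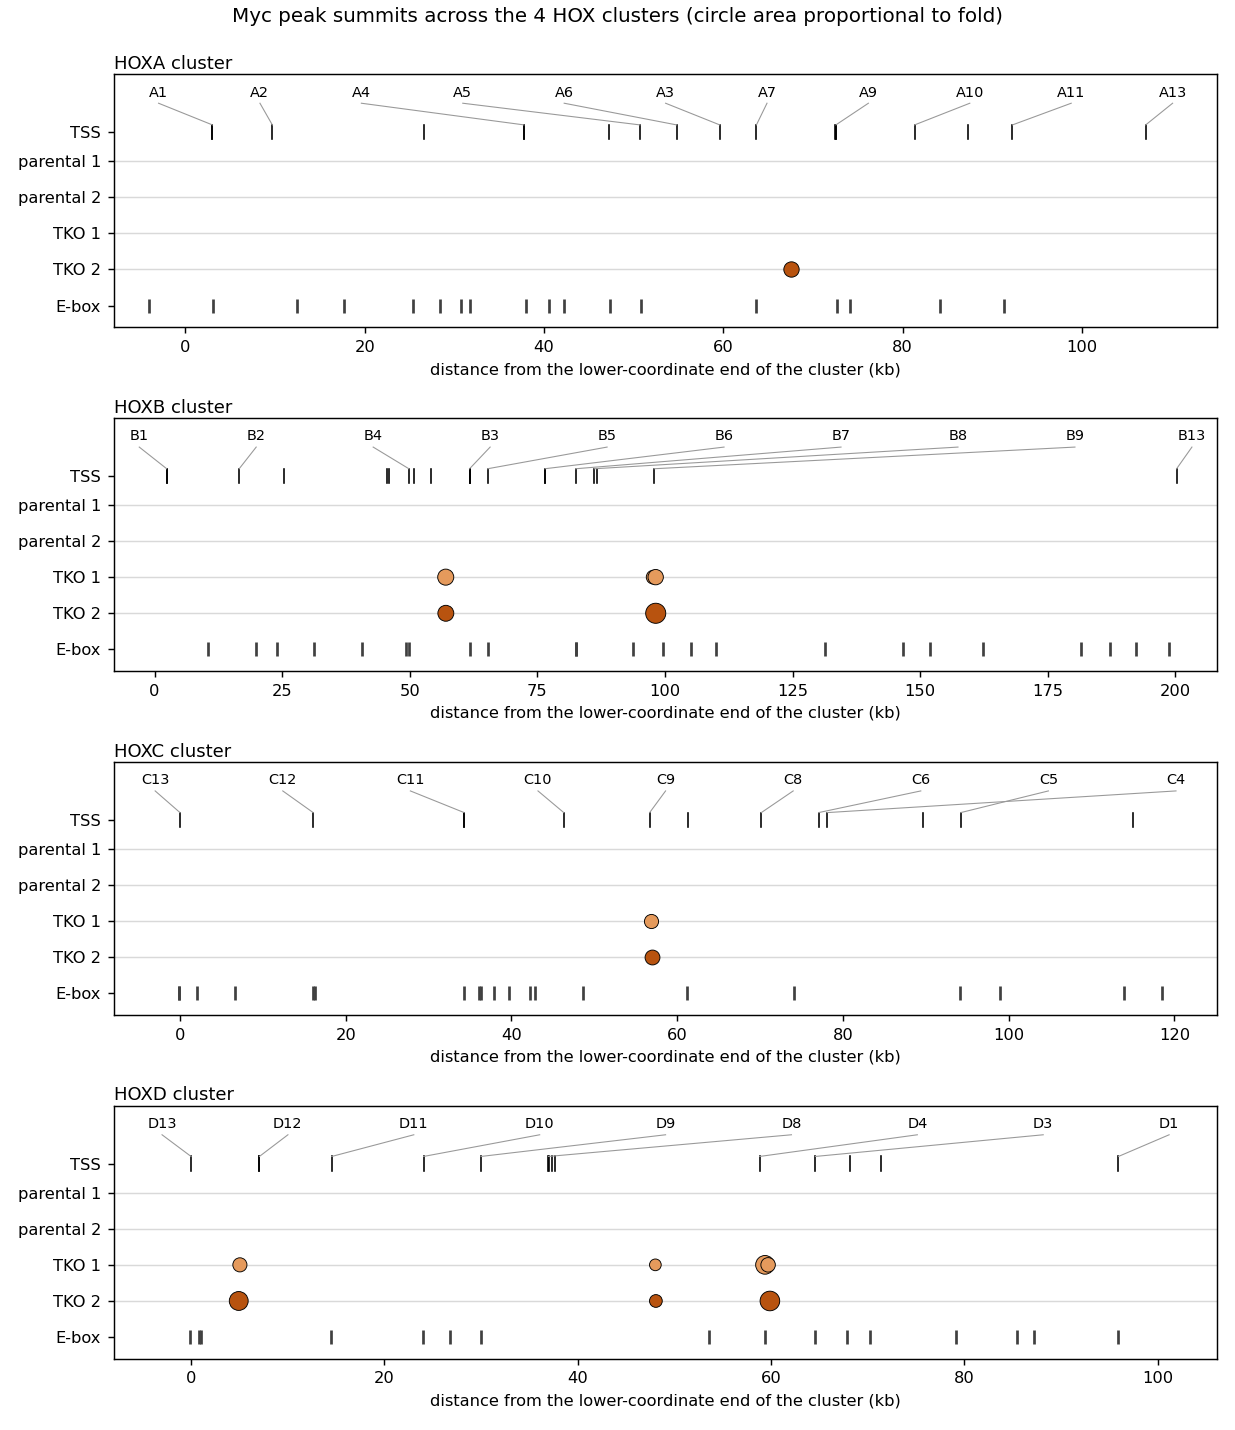
Position of Myc peak summits (circles, area proportional to fold), HOX transcription start sites (top ticks, each gene label leading to 1 of its start sites) and CACGTG E-boxes (bottom ticks) along each HOX cluster. The x axis is the distance in kb from the lower-coordinate end of the cluster. The rows of both parental libraries are empty, TKO 1 has 8 summits and TKO 2 has 7, and most E-boxes have no summit above them.

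The clusters differed in how many peaks they held. HOXA (chr7:27127612-27244710) had 0 peaks in TKO 1 and 1 in TKO 2, HOXB (chr17:46600888-46811112) 3 and 2, HOXC (chr12:54327615-54454814) 1 and 1, and HOXD (chr2:176952449-177060635) 4 and 3. HOXD, the shortest cluster at 108.187 kb, had the highest density in both TKO libraries, 3.70 and 2.77 peaks per 100 kb. HOXA was empty in TKO 1 over 117.099 kb, and the nearest TKO 1 summits lay 228 kb before and 463 kb after the cluster. The single HOXA peak of TKO 2 lay between HOXA7 and HOXA9 (chr7:27200096-27200377), 3889 bp upstream of HOXA7, with a fold of 5.16 and 14 reads. By position on the body axis, the 8 anterior genes (paralog groups 1 to 3) were bound in no library. Of the 15 central genes (groups 4 to 8), 1 was bound in TKO 1 and 0 in TKO 2, and of the 16 posterior genes (groups 9 to 13), 2 were bound in each TKO library. These counts are too small to order the clusters or the paralog groups.

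Parental peaks were sparse across the genome, at 0.122 and 0.188 per 100 kb in parental 1 and parental 2. The nearest one to any cluster was in parental 2, 22.5 kb before HOXB, on the side of HOXB1, a gene of hindbrain patterning. In parental 1 the nearest was 164 kb after HOXB, on the side of HOXB13, and none lay closer than 211 kb to the other clusters. At HOXD, parental 1 had no peak within 500 kb on either side, and parental 2 had 1. In TKO, HOXD12 had summits 2020 and 2140 bp from a TSS, outside the 1 kb window, and was not bound. With a window of 3 kb the number bound was 5 HOX genes in each TKO library and 0 in each parental library.

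Several of the HOX peaks in TKO cells lay in introns or between genes. The peak between HOXD13, a regulator of digit formation, and HOXD12 had folds of 4.36 and 7.80 with 28 and 25 reads in TKO 1 and TKO 2 (chr2:176961802-176962672 and chr2:176961952-176962736). At 871 and 785 bp it was a broad peak, wider than 93.8% and 91.3% of the peaks of each list. A peak in the region of the longer HOXD3 transcripts, upstream of HOXD4, had the lowest folds of the set, 2.996 and 3.56, with 31 and 27 reads (chr2:177005218-177005552 and chr2:177005235-177005708). Its local background was high, at 9.68 and 6.86 reads, so its low fold went with more summit reads than most HOX peaks had.

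**Figure D2:**
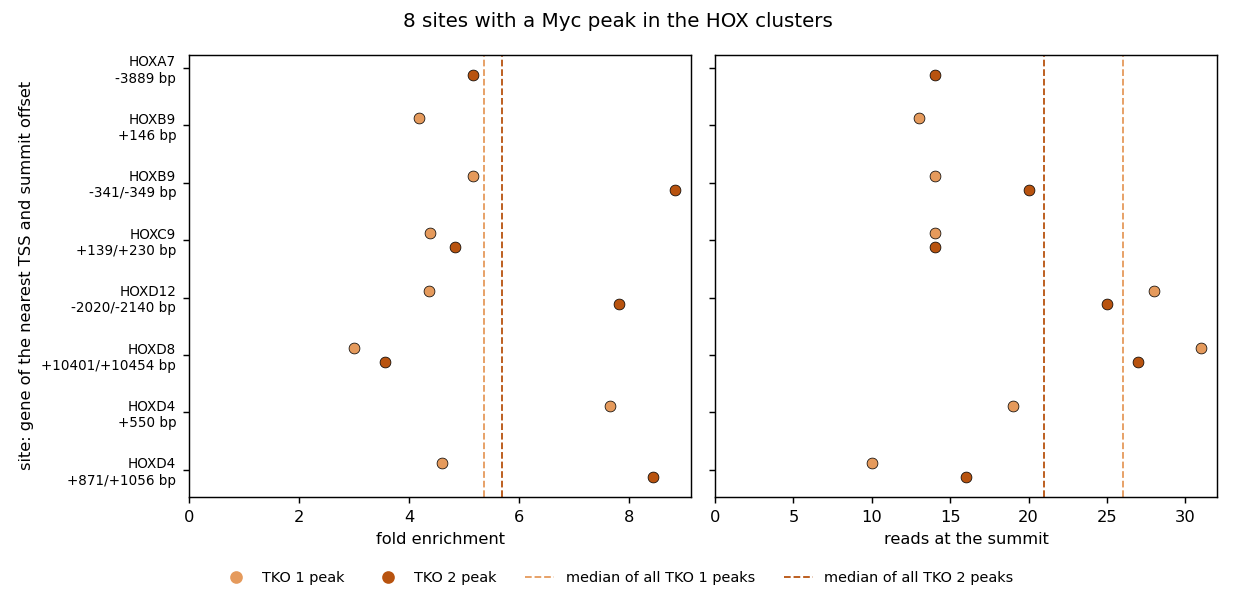
Fold enrichment (left) and reads at the summit (right) of the Myc peaks at 8 of the 9 sites in the HOX clusters, by site, with the gene of the nearest start site and the summit's offset from it (negative is upstream). Points are single peaks of TKO 1 and TKO 2, with no error bars, and dashed lines are the medians of all peaks of each library. In TKO 1, 6 of the 7 points are left of the fold median, and 5 sites have a peak in both libraries. In TKO 2, the points at folds of 3.56, 4.82 and 5.16 are left of the fold median. Those at 7.80, 8.43 and 8.83 are right of it.

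By their medians, the peaks in the HOX clusters were of ordinary or low strength for their lists, while single peaks ranked higher. The median percentile by fold was 29.4 in TKO 1 and 48.2 in TKO 2. In TKO 2, the HOXB9, distal HOXD4 and HOXD13 to HOXD12 peaks stood at the 85.5th, 83.3rd and 79.2nd percentile. The proximal HOXD4 peak of TKO 1 stood at the 79.0th. Fold ranged from 2.996 to 7.65 in TKO 1, with a median of 4.49 against 5.37 for all peaks. In TKO 2 it ranged from 3.56 to 8.83, with a median of 5.56 against 5.68. The median number of summit reads was 16.5 against 26 in TKO 1 and 20 against 21 in TKO 2. The peaks had a median GC content of 66.4% and 66.7% within 100 bp of the summit, against 59.2% and 60.7% for all peaks and 63.7% and 64.2% for all promoter peaks. Peaks of 1 library are not replicates, so these are descriptions.

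When overlapping peaks of the 4 lists were merged, the HOX peaks fell into 9 sites. Of these, 6 were called in TKO 1 and TKO 2 with no parental peak, 0 in all 4 libraries, and 3 in a single TKO library. Among all 33436 sites the share of that first class was 40.3%, and the share called in all 4 was 7.87%. Of all TKO peaks in the same fold range as the HOX peaks, 11.8% in TKO 1 and 12.9% in TKO 2 overlapped a parental peak, which corresponds to 0.941 and 0.902 of the HOX peaks. The HOX count was 0 in both, less than 1 peak below those numbers.

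E-boxes were then located, since HOX promoters held them more often than other promoters. The motif was CACGTG, which reads the same on both strands. Within 500 bp of a TSS it was found at 21 of the 39 HOX genes (53.8%) and at 24.1% of all protein-coding genes. By cluster, 6 of 11 HOXA, 4 of 10 HOXB, 5 of 9 HOXC and 6 of 9 HOXD genes had it. Of the 21 HOX genes with such an E-box, 1 was bound in each TKO library (4.76%), which was HOXC9. The HOXC9 peak lay at a different TSS from the one with the E-box, and no peak covered that E-box. Of the 4746 other genes with an E-box, 61.5% and 61.9% were bound in TKO 1 and TKO 2, and 22.7% and 23.1% in parental 1 and parental 2. Of the 15000 other genes without one, 45.3% and 46.0% were bound in the TKO libraries.

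Counted by E-box, those 21 HOX genes held 26 CACGTG sites within 500 bp of a TSS. The number under a peak was 0 of 26 in each of the 4 libraries, which allows a share of up to 11.5% taken as 3 counts, or 13.2% by the exact interval. Of the 5662 such E-boxes at other genes, 12.9% and 12.4% were under a peak in the parental libraries and 39.1% and 37.8% in the TKO libraries. The count at HOX genes thus lay under the TKO shares, while the exact interval holds the parental ones. Over the whole clusters there were 77 E-boxes, 1.37 per 10 kb against 0.903 in the genome. They were spread as 18 in HOXA, 23 in HOXB, 20 in HOXC and 16 in HOXD, and 29 of them lay within 1 kb of a TSS. A single E-box of the 77 was under a peak, that of the proximal HOXD4 site in TKO 1. Of all E-boxes of the genome, 2.12% and 1.91% were under a TKO 1 or TKO 2 peak, which corresponds to 1.63 and 1.47 of 77. The count over whole clusters was near those numbers. The genome's share was not matched for distance to a TSS, and 26 of the 77 lay within 500 bp of one.

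The motifs under the HOX peaks were then counted. Within 50 bp of the summit, 1 of the 8 HOX peaks of TKO 1 (12.5%, 95% confidence interval 0.316% to 52.7%) and 0 of the 7 of TKO 2 (0% to 41.0%) held CACGTG. Of all peaks, 8.82% and 7.58% did. In equally long windows shifted by 1 kb from all summits, the shares were 1.49% and 1.55%. No HOX peak held a variant E-box (CACGCG or CATGTG on either strand), against 16.6% and 13.6% of all peaks. None held an AP-1 motif (TGACTCA on either strand), against 8.67% and 6.78% of all peaks. With 8 and 7 peaks, none of these shares could be told apart from that of all peaks.

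HOX promoters were not poor in CpG. The CpG ratio, the observed over expected number of CG dinucleotides within 500 bp of a TSS, had a median of 0.765 at HOX genes, with a range from 0.374 to 1.002, and 0.664 at all genes. Median GC content was 59.6% at both. Among other genes, the bound share rose with the CpG ratio up to a ratio of about 0.7 and changed little above it. Of the 6272 other genes with a CpG ratio at or above the HOX median, 70.0% and 70.7% were bound in TKO 1 and TKO 2, and 20.4% and 19.9% in the parental libraries. In the class from 0.8 to 0.9, which holds 10 HOX genes, 69.5% and 70.4% of the other genes were bound in TKO 1 and TKO 2 against 1 of 10 HOX genes in each. In the class from 0.9 to 1, none of the 5 HOX genes was bound against 70.4% and 70.7% of the other genes.

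**Figure D3:**
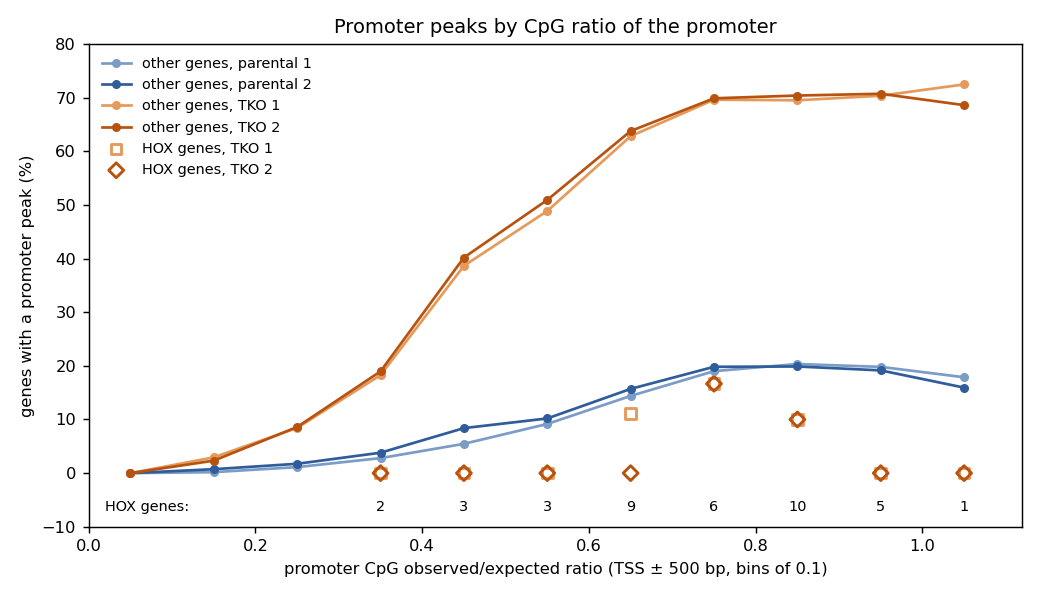
Share of genes with a Myc promoter peak in percent (y axis) by the CpG ratio of the promoter (x axis, classes of 0.1). Lines are all other protein-coding genes in each library, open squares and diamonds are HOX genes in TKO 1 and TKO 2, and the numbers along the bottom count the HOX genes per class. The lines for TKO rise to about 70% and level off while every HOX class stays under 20%, and there are no error bars since each point is 1 library.

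Genes related to HOX by function or position were counted in the same way, from lists of fixed membership. Of 13 other HOX-like homeobox genes, 0, 0, 2 and 2 were bound in parental 1, parental 2, TKO 1 and TKO 2, led by GSX2 with folds of 6.19 and 6.60 in TKO and MNX1 with folds of 6.29 and 5.77. EVX2 and EVX1, even-skipped-type homeobox genes next to HOXD and HOXA, were bound in no library. Of 49 genes of the DLX, IRX, LHX, NKX, PAX and sine oculis homeobox and paired-box families, 2, 2, 11 and 9 were bound. They were led by SIX4 with folds of 8.36 and 9.27 in TKO and PAX8 with folds of 7.41 and 9.99. PAX8 was also bound in parental 1 and parental 2, with folds of 2.76 and 3.63. The share of the HOX-like genes was 15.4% (exact interval 1.92% to 45.4%) in TKO 1 and in TKO 2. That of the 49 genes was 22.4% (11.8% to 36.6%) in TKO 1 and 18.4% (8.76% to 32.0%) in TKO 2. These intervals, like those of the HOX genes, lay under the TKO shares of all genes, so a low share was not particular to HOX genes. The TALE homeobox proteins, which bind DNA together with HOX proteins, had 0, 0, 2 and 3 of 9 genes bound, with MEIS2 (folds of 7.33 and 7.61 in TKO) and PKNOX1 (5.65 and 6.72) the strongest. For the TALE genes the exact intervals, 2.81% to 60.01% and 7.49% to 70.1%, hold the TKO shares of all genes, 49.1% and 49.7%, so no departure from them was detectable.

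The regulators that silence or maintain HOX clusters were counted as well. Of 30 Polycomb genes, 2, 3, 21 and 22 were bound, which is 70% and 73.3% in TKO 1 and TKO 2. The strongest were EZH1, a histone H3 lysine 27 methyltransferase, with folds of 13.7 and 10.8 in TKO, and AEBP2, a subunit of the same complex, with 11.1 and 12.7. Of 14 Trithorax and MLL genes, 3, 2, 13 and 13 were bound, or 92.9% in both TKO libraries. KMT2D, a histone H3 lysine 4 methyltransferase, had folds of 5.65 and 5.19 in parental 1 and parental 2 and 19.1 and 19.2 in TKO 1 and TKO 2, and WDR5, a shared subunit of these complexes, had 10.4 and 9.94 in TKO. The shares in TKO lay above those of all genes, with no test made on such small lists. For Polycomb genes the exact intervals were 50.6% to 85.3% in TKO 1 and 54.1% to 87.7% in TKO 2. For Trithorax and MLL genes they were 66.1% to 99.8% in each. The shares were not matched for CpG ratio. Of other genes at or above the HOX median ratio, 70.0% and 70.7% were bound in TKO 1 and TKO 2.

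**Figure D4:**
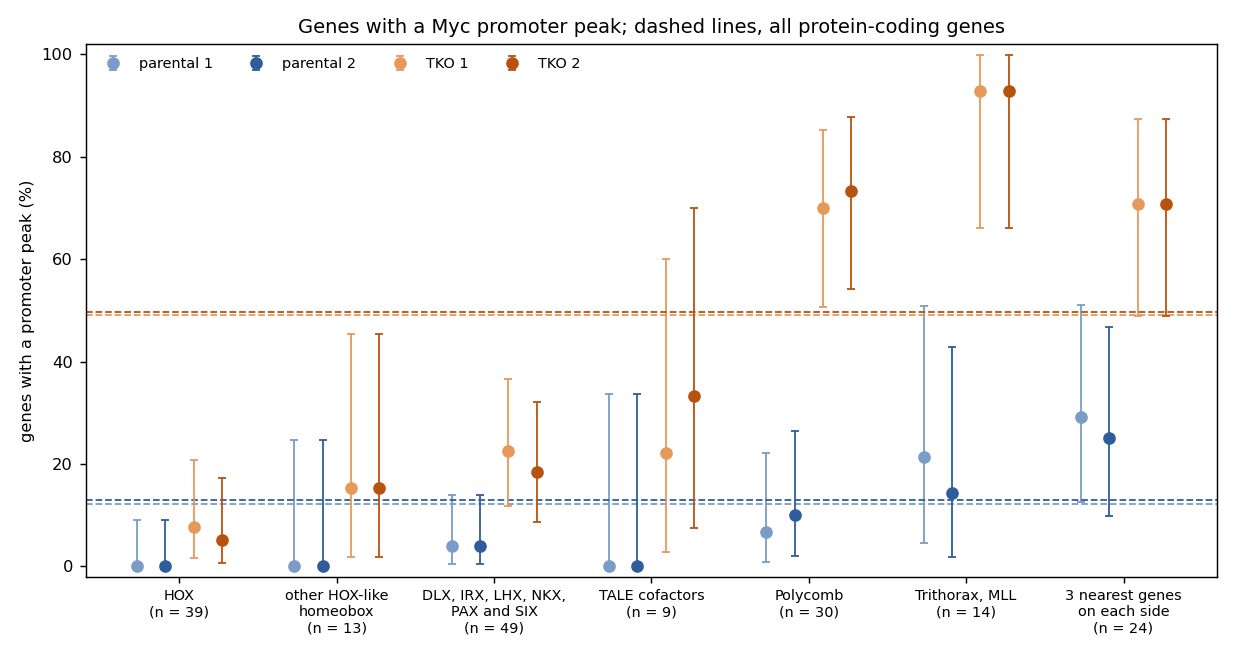
Share of genes with a Myc promoter peak, in percent (y axis), for the HOX genes and 6 related lists (x axis) in each of the 4 libraries. Points are shares, bars are 95% Clopper-Pearson intervals, which cover counting error only, and dashed lines are the shares of all protein-coding genes. The HOX points of TKO 1 and TKO 2, 7.69% and 5.13%, lie under the dashed lines at 49.1% and 49.7%.

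Genes flanking the clusters were counted by distance. Of the 24 protein-coding genes that are the 3 nearest on each side of a cluster, 7, 6, 17 and 17 were bound in parental 1, parental 2, TKO 1 and TKO 2, or 70.8% in each TKO library against 49.1% and 49.7% of all genes. These genes reach up to 1028 kb from a cluster. Of the 8 within 100 kb, 0, 0, 3 and 2 were bound, and of the 16 farther away 7, 6, 14 and 15 were. Next to HOXD, LNPK and MTX2 were bound in both TKO libraries, at folds of 4.77 and 3.83 and of 4.81 and 7.25. Those genes lie 89.9 kb before and 78.5 kb after the cluster. By mean percentile of fold in TKO, the first of the neighbours were HNRNPA1 and CBX5 beyond HOXC, which share a peak with folds of 15.9 and 11.7 in TKO 1 and TKO 2. The genes next to each cluster were not all bound, as EVX1, SKAP1, TTLL6, SMUG1 and EVX2 had no promoter peak in any library.

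The clusters hold 44 further genes with a TSS, of which 29 are long noncoding RNAs, 7 are microRNAs, 4 are protein-coding, 3 are pseudogenes and 1 is unclassified. The number bound was 0 of 44 in each of the 4 libraries. Of all long noncoding RNA genes, 4.06%, 4.86%, 18.0% and 18.1% were bound in parental 1, parental 2, TKO 1 and TKO 2, and of all microRNA genes 5.15% and 5.44% in TKO. At the genome's share for each gene type, 1.76, 2.02, 7.66 and 7.73 of the 44 would have been bound. These genes lie in the same clusters as the HOX genes, so they are not independent of the HOX counts. HOTAIR, a long noncoding RNA of the HOXC cluster known to bind chromatin-modifying complexes, had its nearest TKO summits 20692 and 20783 bp away. HOTTIP and HOTAIRM1, noncoding RNAs at opposite ends of the HOXA cluster, had theirs between 33727 and 335929 bp away. HOXC-AS2, which runs through the HOXC9 site, came closest, at 1137 and 1046 bp.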

How the data were processed

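The authors aligned 50-cycle single reads to hg19 with Novoalign 3.08.02 and called peaks per library with MACS2 2.1.1.20160309, per the labels and the study's methods. How duplicates were handled is not given in the sources used here. Each deposited peak list gives a summit, a fold (ratio over local background), a −log10 p-value, a −log10 q-value and a score derived from the q-value. The 2 inputs were not analysed here as samples. Fold and p fix the whole number of summit reads, and a match within a −log10 tolerance of 0.002 was found for 100% of peaks in every list (9.8% to 14.2% at 0.9 times the fitted scale). Depth was derived from the lowest recovered background, the narrowest peak and an assumed genome of 2700000000 bases.

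GENCODE v44 lifted to GRCh37 gave 19785 protein-coding genes and 55869 basic start sites, and 11 mitochondrial peaks were left out. Exact two-sided permutation tests compared the libraries. Peaks were merged into sites at an overlap of 1 bp. For a gene with several start sites, GC content and CpG ratio are means over them. The recovery of summit reads and the assignment of summits to start sites were the steps tested on simulated data. The position and sequence of 1 site are not reported here. Python 3.11.15, numpy 2.4.6, pandas 2.3.3, scipy 1.17.1, pysam 0.24.0 and matplotlib 3.10.9 were used.

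Named HOX genes were those with a promoter peak in a parental or in both TKO libraries, and named genes of other lists were the 2 of highest mean percentile in TKO. Members and lists were chosen with earlier results of these data known, and the E-box and CpG counts over promoters and clusters, as well as further genes given with values, were chosen after peaks had been seen. Alternatives were thresholds of 5 on −log10 q or fold, equally long lists, other windows, cluster flanks and transcripts, overlap in place of the summit, a replicate block, and each library left out.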

Additional observations from a re-analysis of the deposited data

How the results depend on the processing

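The number of HOX genes bound in TKO minus parental libraries, 2.5, and the number of peaks in the HOX clusters, 7.5, rest on parental counts of 0 in every alternative, so neither could fall below 0. Both were 0 with lists of the 3720 strongest peaks by −log10 p, where the best HOX peaks ranked 9733 in TKO 1 and 6363 in TKO 2. At a fold of at least 5 they were 1.5 and 4, and with a TSS window of 3 kb the number of genes was 5. Leaving out each library in turn gave 2 to 3 genes and 7 to 8 peaks. The share of HOX genes bound in TKO minus that of all genes, -43.0 percentage points, was -40.0 with the 3 kb window, -39.6 with a 500 bp window, -35.7 at a fold of at least 5 and -13.4 with equally long lists. It was -44.6 without TKO 1 and -41.4 without TKO 2. The mean share of HOX cluster peaks with an E-box, 6.25%, was 16.7% at a fold of at least 5, 0% without TKO 1 and 12.5% without TKO 2, so it rests on the single HOXD4 peak of TKO 1, and equally long lists left no HOX peak to count. The cause of these shifts was not tested beyond the fewer peaks or wider windows that the alternatives themselves bring.

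With all transcripts in place of basic ones, the mean number of genes was 3.5, through HOXC6. In a replicate block the differences were 2.5 genes and 7.5 peaks, where the smallest possible p is 0.5. The labels give same-numbered libraries no link beyond the number. Their deviations over 2631 sites, none of them in a HOX cluster, had a correlation of 0.0127. That value cannot tell whether same-numbered libraries were handled together. The block was not run for the other values, which come from TKO libraries alone. The depth limits what an absent peak can say, and 2 libraries per genotype limit every comparison.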
